A study of Mus musculus with 71 samples.

Results

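The ionotropic glutamate receptors of the AMPA and NMDA types were followed in the whole brain of mice that had been kept awake and of mice left undisturbed. The members were all probe sets that the platform annotation pairs with Gria1, Gria2, Gria3, Gria4, Grin1, Grin2a, Grin2b, Grin2c, Grin2d or Grin3a. There were 21 such probe sets, for 9 of the 10 genes, among 45037 probe sets tested, which name 18193 genes. Grin1 was not analysed here. The sleep-deprived groups were male AKR/J, C57BL/6J and DBA/2J mice aged 12 to 13 weeks that had been kept awake for the 6 h before sacrifice, and the control groups were males of the same strains and age in their home cages. Sacrifice was at ZT0 (light onset), ZT6 (the middle of the light period), ZT12 (dark onset) or ZT18 (the middle of the dark period). Each of the 71 arrays held RNA pooled from 3 mice of 1 group, with 3 arrays in 23 groups and 2 in sleep-deprived AKR/J at ZT18, so that 35 arrays were of sleep-deprived mice and 36 of controls. No mouse carried an engineered allele by the labels, and the strains are inbred.

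Fast excitatory transmission in the brain runs through AMPA receptors, tetramers assembled from the products of Gria1 to Gria4, and the Gria2 subunit, after editing of its RNA, makes the channel nearly impermeable to calcium. NMDA receptors need both glutamate and a co-agonist, glycine or D-serine, and pass calcium once depolarisation lifts a magnesium block; they combine the obligatory Grin1 subunit with Grin2 or Grin3 subunits that set their kinetics and location. In rodents, surface AMPA receptors and the strength of cortical excitatory synapses have been described as higher after waking than after sleep, which is why the transcripts of the subunits are of interest in a sleep deprivation experiment.

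A probe set of 3 genes differed with sleep deprivation over all strains and times (Gria2, Gria4) or with time of day in controls (Grin2c). Their promoter windows are shown. They are RefSeq sequences on build GRCm38.p6, from 250 bases before to 50 after the gene start, on the minus strand at chr3:80802786-80803085 for Gria2, chr9:4796185-4796484 for Gria4 and chr11:115267194-115267493 for Grin2c. Capitals mark GC boxes (GGGCGG), the letters known to be bound by Sp1, and each sequence reads in the direction of its gene.
Gria2: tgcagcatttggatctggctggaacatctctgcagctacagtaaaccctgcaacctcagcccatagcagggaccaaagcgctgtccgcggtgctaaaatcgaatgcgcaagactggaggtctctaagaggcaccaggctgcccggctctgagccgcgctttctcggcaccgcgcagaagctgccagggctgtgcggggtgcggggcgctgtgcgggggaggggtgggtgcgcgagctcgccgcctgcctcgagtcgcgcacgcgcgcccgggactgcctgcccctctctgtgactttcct
Gria4: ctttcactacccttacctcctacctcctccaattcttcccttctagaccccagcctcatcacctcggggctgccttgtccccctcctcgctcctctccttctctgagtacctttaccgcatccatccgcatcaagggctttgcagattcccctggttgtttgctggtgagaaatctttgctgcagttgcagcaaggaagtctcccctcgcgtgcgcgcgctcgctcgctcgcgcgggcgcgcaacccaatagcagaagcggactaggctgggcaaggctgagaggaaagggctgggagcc
Grin2c: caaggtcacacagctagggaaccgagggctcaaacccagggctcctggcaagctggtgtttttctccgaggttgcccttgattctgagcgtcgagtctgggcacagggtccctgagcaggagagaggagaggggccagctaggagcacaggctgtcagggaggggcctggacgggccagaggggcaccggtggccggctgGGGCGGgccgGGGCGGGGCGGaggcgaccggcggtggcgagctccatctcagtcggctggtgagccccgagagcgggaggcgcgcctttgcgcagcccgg
The GC box occurred 3 times in the Grin2c window, where the last pair share a base, and was not found in the other two. It was present in 35.7% of the 32851 promoters of the same length. The letters of the cyclic AMP response element (TGACGTCA), the E-box bound by clock factors (CACGTG) and the AP-1 site (TGANTCA), searched on both strands, were in none of the 3 windows, against 1.79%, 7.15% and 7.81% of all promoters. A match describes letters and not a bound site. Of the 10 listed genes, 5 had a promoter in the table.

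Values are log2 levels per probe set, which were not compared between probe sets. A probe set is said to be called, or to pass, where its Benjamini-Hochberg adjusted p over all 45037 probe sets was under 0.05 in a limma fit to all arrays. The tissue label fitted the markers of brain: the mean log2 level of 6 neuronal markers ran from 12.25 to 12.38 on arrays of sleep-deprived mice and from 12.25 to 12.47 on arrays of controls. Homer1, a synaptic scaffold gene induced by waking, was higher in sleep-deprived mice by 0.15 ± 0.02 log2 units on its brightest probe set (SE, limma, adjusted p = 4.66e-09), and all 6 of its probe sets passed the test in that direction, by up to 1.57 log2 units. On 6 arrays the bacterial spike-in controls were low, 0.39 to 0.54 log2 units below their median over all arrays; 3 of them were of sleep-deprived mice (C57BL/6J at ZT0, replicate 3, and at ZT6, replicates 1 and 3) and 3 of controls (C57BL/6J at ZT0 and AKR/J at ZT0 and ZT6, replicate 3 each). These arrays also stood apart in several members, and the values with and without them are given beside the results they touch.

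For the 4 members whose group means varied most, strain took the largest share of the variation. Of the sum of squares over all arrays, strain took 93.2% for Gria1 (1448972_at), 81.6% and 79.5% for Grin2b (1457003_at and 1422223_at) and 75.8% for Gria2 (1453098_at). Sleep deprivation took 10.1% at most, for Gria4 (1435722_at), and time of day 28.5% at most, for Grin2c. Differences between replicate pools took the largest share for each of the others, among them 58.5% for Grin2b (1442370_at), which had the widest range over the arrays, 73.2% for Gria3 (1434728_at) and 72.6% for Grin2d (1442328_at). The map of group means shows these blocks.

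**Figure D1:**
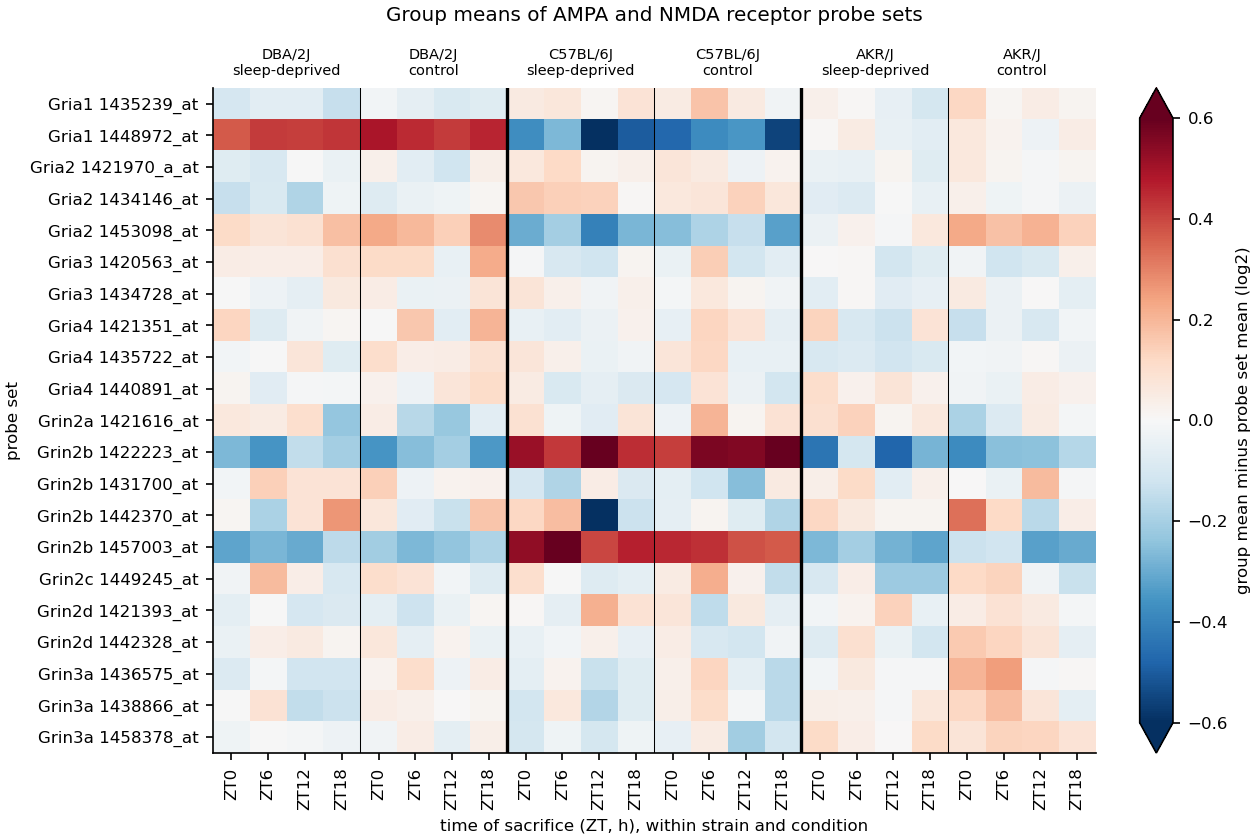
Group means of the 21 probe sets (rows) in the 24 groups (columns, ordered by strain, then condition, then time of sacrifice), as log2 difference from the probe set's mean over all arrays; colours saturate beyond 0.6. Gria1 1448972_at, Gria2 1453098_at and Grin2b 1422223_at and 1457003_at form blocks that follow strain, and few rows follow condition or time.

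The question behind the sleep deprivation comparison was whether 6 h without sleep alters the receptor transcripts. Of the 21 probe sets, 2 were lower in sleep-deprived mice over all strains and times and none was higher, with 17.3% of all probe sets called (8.31% higher and 9% lower), so the members' share of 9.52% was below that of the array as a whole. The called ones were Gria2 (1453098_at), which fell by 0.11 ± 0.02 log2 units (SE), or 7.52%, and Gria4 (1435722_at), which fell by 0.06 ± 0.02 (SE), a change of -3.82% (limma, adjusted p = 3.06e-05 and 0.0298). The median difference over the 21 was -0.02 log2 units, against 0.00 over all probe sets, and 17 of the 21 differences were below 0, against 52.3% of all probe sets. The 21 belong to 9 genes and shared deviations between arrays, so they are not independent. Regardless of sign, the median size of a difference was 0.02 log2 units over the 21 and 0.03 over all probe sets. The 95% confidence intervals of the 19 not called lay between -0.17 and 0.15 log2 units. The p-values measure the spread between pools of mice.

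Gria2, the subunit that governs calcium permeability of AMPA receptors, had 3 probe sets, of which 1453098_at alone was called with sleep deprivation. On 1453098_at the lowest, median and highest levels in AKR/J were 9.70, 9.85 and 9.94 in 11 sleep-deprived pools, against 9.89, 10.04 and 10.10 in 12 control pools. In DBA/2J they were 9.80, 9.97 and 10.11 in sleep-deprived pools, against 9.89, 10.09 and 10.20 in control pools (n = 12 each). In C57BL/6J they were 9.28, 9.53 and 9.73 in sleep-deprived pools, against 9.42, 9.64 and 9.81 in control pools (n = 12 each). The ranges thus overlapped in each strain, with the sleep-deprived median below the control median in all 3. The difference was below 0 in 11 of the 12 combinations of strain and time, the exception being C57BL/6J at ZT18 (0.05); 4.26% of all probe sets were lower in 11 or more.

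By strain, Gria2 1453098_at passed the test in AKR/J, where it fell by 0.17 ± 0.04 log2 units (SE, limma, adjusted p = 0.00103). It was the only member called there, with 5.85% of all probe sets called. The difference was -0.10 ± 0.04 in DBA/2J and -0.07 ± 0.04 in C57BL/6J (SE, limma, adjusted p = 0.101 and 0.313). In neither of those strains did any member pass with limma, with 6.9% and 6.45% of all probe sets called, and 2 and 0 members were under an unadjusted p of 0.05. The strains were not shown to differ in this: no member passed the test of strain by sleep deprivation (limma, lowest adjusted p = 0.725, 0.728 for Gria2 1453098_at, 0 members at an unadjusted p under 0.05, 0.0222% of all probe sets called).

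By time of sacrifice, Gria2 1453098_at passed at ZT12, after waking through the second part of the light period, where it fell by 0.18 ± 0.04 log2 units (SE, limma, adjusted p = 0.00175; 9.75% of all probe sets called). At ZT12 the AKR/J pools had 9.81, 9.85 and 9.84 when sleep-deprived, against 10.01, 10.03 and 10.10 as controls, and the C57BL/6J pools had 9.52, 9.51 and 9.28 when sleep-deprived, against 9.65, 9.80 and 9.66 as controls. Neither pair of groups overlapped, and the share of all probe sets without overlap between these groups was not counted. The DBA/2J pools at ZT12 had 9.92, 9.98 and 9.90 when sleep-deprived, against 9.89, 10.10 and 9.95 as controls, and these overlapped. No member passed with limma at ZT0, ZT6 or ZT18, where 1.71%, 10.4% and 0.0777% of all probe sets were called and 2, 2 and 0 members were under an unadjusted p of 0.05. The differences of Gria2 1453098_at at those times were -0.14, -0.09 and -0.04, and the test of time by sleep deprivation called no member (limma, lowest adjusted p = 0.352, 1 member at an unadjusted p under 0.05, 1.4% of all probe sets called).

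The other Gria2 probe sets moved little with sleep deprivation. The brightest, 1421970_a_at, differed by -0.02 ± 0.02 log2 units (SE) and 1434146_at by -0.03 ± 0.02 (SE; limma, adjusted p = 0.686 and 0.468). Their 95% confidence intervals were -0.06 to 0.03 and -0.07 to 0.02, and the estimate for 1453098_at was -0.11. Whether the probe sets differed from each other in this was not tested. Which Gria2 transcripts each probe set reads was not analysed here. The call on 1453098_at held without the 6 arrays with low spike-ins (-0.10, limma, adjusted p = 0.000146), and with any single array left out the difference stayed between -0.12 and -0.10.

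**Figure D2:**
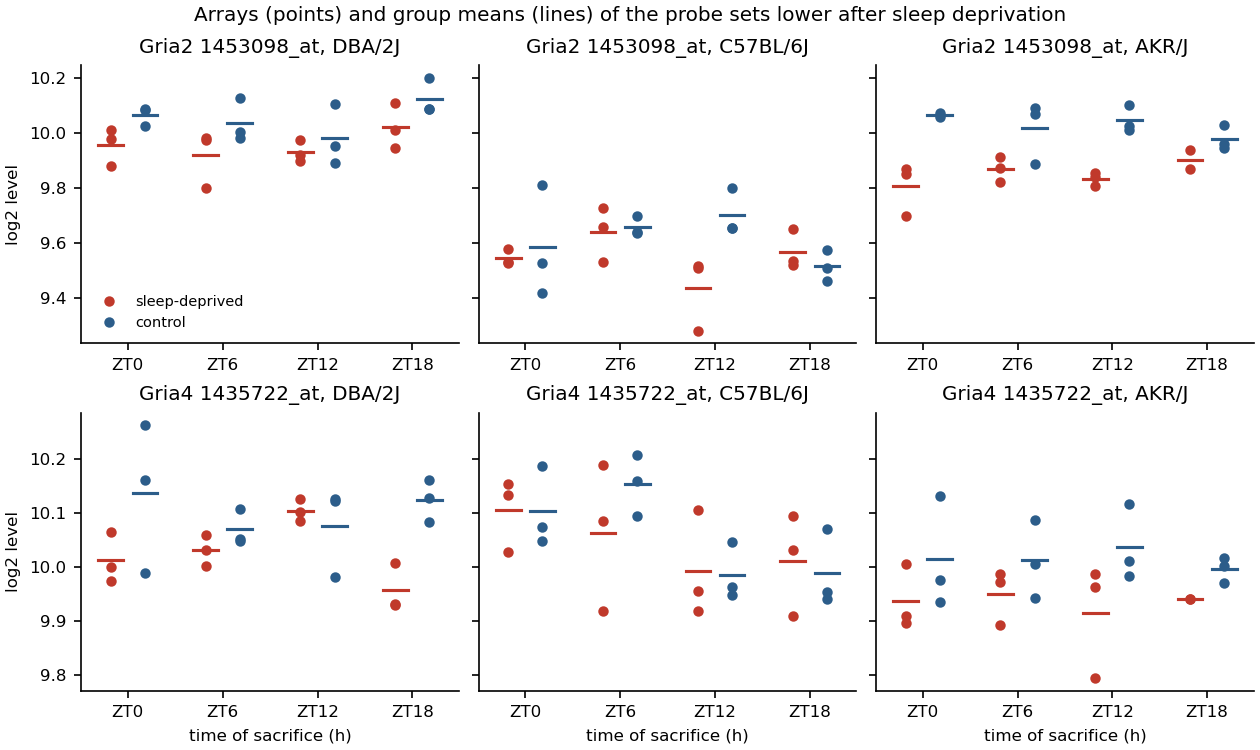
Log2 level (vertical axis) of Gria2 1453098_at (top) and Gria4 1435722_at (bottom) on each array, by time of sacrifice and strain; red points are sleep-deprived pools, blue points control pools, and lines are group means. Sleep-deprived AKR/J pools sit below control pools at ZT0, ZT12 and ZT18 on the Gria2 probe set, and the Gria4 groups overlap in most panels.

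Gria4, which forms fast AMPA receptors on interneurons and in the brainstem and cerebellum, was lower on its brightest probe set, 1435722_at, in 8 of 12 combinations of strain and time. So were Gria1 1448972_at, Gria2 1434146_at and Grin2c, none of which was called over all strains. On Gria4 1435722_at in DBA/2J the lowest, median and highest levels were 9.93, 10.02 and 10.13 in sleep-deprived pools, against 9.98, 10.12 and 10.26 in control pools. In AKR/J they were 9.80, 9.94 and 10.01 in sleep-deprived pools, against 9.94, 10.004 and 10.13 in control pools. In C57BL/6J they were 9.91, 10.06 and 10.19 in sleep-deprived pools, against 9.94, 10.06 and 10.21 in control pools. The ranges overlapped widely, and the C57BL/6J medians were alike. This call was at the edge of the threshold: without the DBA/2J control at ZT0, replicate 1, the highest array of its strain, the adjusted p was 0.0507 (difference -0.05, limma). The other Gria4 probe sets, 1421351_at and 1440891_at, differed by -0.02 ± 0.03 and 0.00 ± 0.02 (SE; limma, adjusted p = 0.824 and 0.953).

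Gria1, the subunit inserted at synapses during potentiation, and Gria3, a subunit of constitutively cycling receptors, passed no test over all strains. Gria1 differed by -0.04 ± 0.02 log2 units (SE) on 1435239_at and by -0.03 ± 0.02 (SE) on 1448972_at (limma, adjusted p = 0.189 and 0.395). Gria3 differed by -0.02 ± 0.02 (SE) on 1420563_at and by -0.01 ± 0.02 (SE) on 1434728_at (limma, adjusted p = 0.575 and 0.817). Within single combinations of strain and time, 3 of the 21 members were called in at least 1 of the 12, against 12.9% of all probe sets, and each of these calls was in C57BL/6J.

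At ZT12 the C57BL/6J pools had 9.38, 9.10 and 9.27 on Gria1 1448972_at when sleep-deprived, against 9.46, 9.59 and 9.52 as controls. The groups did not overlap, and the level fell by 0.27 ± 0.07 log2 units (SE, limma, adjusted p = 0.0185), together with the fall of Gria2 1453098_at by 0.27 ± 0.07 in the same pools (SE, limma, adjusted p = 0.0288; 2.14% of all probe sets called). At ZT6 the C57BL/6J pools had 7.93, 8.06 and 7.92 on Gria3 1420563_at when sleep-deprived, against 8.23, 8.13 and 8.29 as controls, a fall of 0.24 ± 0.08 (SE, limma, adjusted p = 0.0478; 7.47% of all probe sets called). These groups did not overlap either, and the share of all probe sets without overlap in these combinations of strain and time was not counted. The Gria1 call was lost without sleep-deprived replicate 2 or 3 or control replicate 2 or 3 of C57BL/6J at ZT12 (limma, adjusted p = 0.226, 0.0571, 0.126 and 0.0601), and the Gria2 call without sleep-deprived replicate 3 or control replicate 2 or 3 (limma, adjusted p = 0.319, 0.194 and 0.0526). On Gria3, sleep-deprived replicates 1 and 3 were among the low spike-in arrays; without the 6 low spike-in arrays the difference was -0.155 and with them as a block -0.19 (limma, adjusted p = 0.645 and 0.213). That call was also lost on leaving out any of 36 of the 71 arrays, and with the replicate number as a block (limma, adjusted p = 0.0503).

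Of the NMDA receptor subunits, none passed the test with sleep deprivation in the fit over all strains. Grin2a, the subunit that predominates in mature cortex and hippocampus, differed by 0.06 ± 0.04 log2 units (SE, limma, adjusted p = 0.374), the highest of the 21 differences. The 4 probe sets of Grin2b, the subunit of early development that remains abundant in the forebrain, differed by -0.01 to 0.01. Grin2c, the subunit of cerebellar granule cells, differed by -0.06 ± 0.03 and the probe sets of Grin2d, found in the diencephalon, brainstem and interneurons, by 0.02 ± 0.03 and -0.02 ± 0.03 (SE).

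Grin3a, whose subunit lowers the calcium permeability of NMDA receptors, differed by -0.09 ± 0.04 log2 units on 1436575_at, by -0.06 ± 0.03 on 1438866_at and by -0.01 ± 0.03 on 1458378_at (SE; limma, adjusted p = 0.163, 0.162 and 0.79). On 1436575_at the difference was below 0 in 11 of 12 combinations of strain and time, and 4.26% of all probe sets were lower in 11 or more. This probe set read higher on the 6 arrays with low spike-ins than on the other arrays of their groups, by 0.26 to 0.68. With those arrays as a block the difference, which stayed at -0.09 because 3 of them were in each condition, passed the test (limma, adjusted p = 0.0132), and without them it did not (-0.08, limma, adjusted p = 0.0531).

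**Figure D3:**
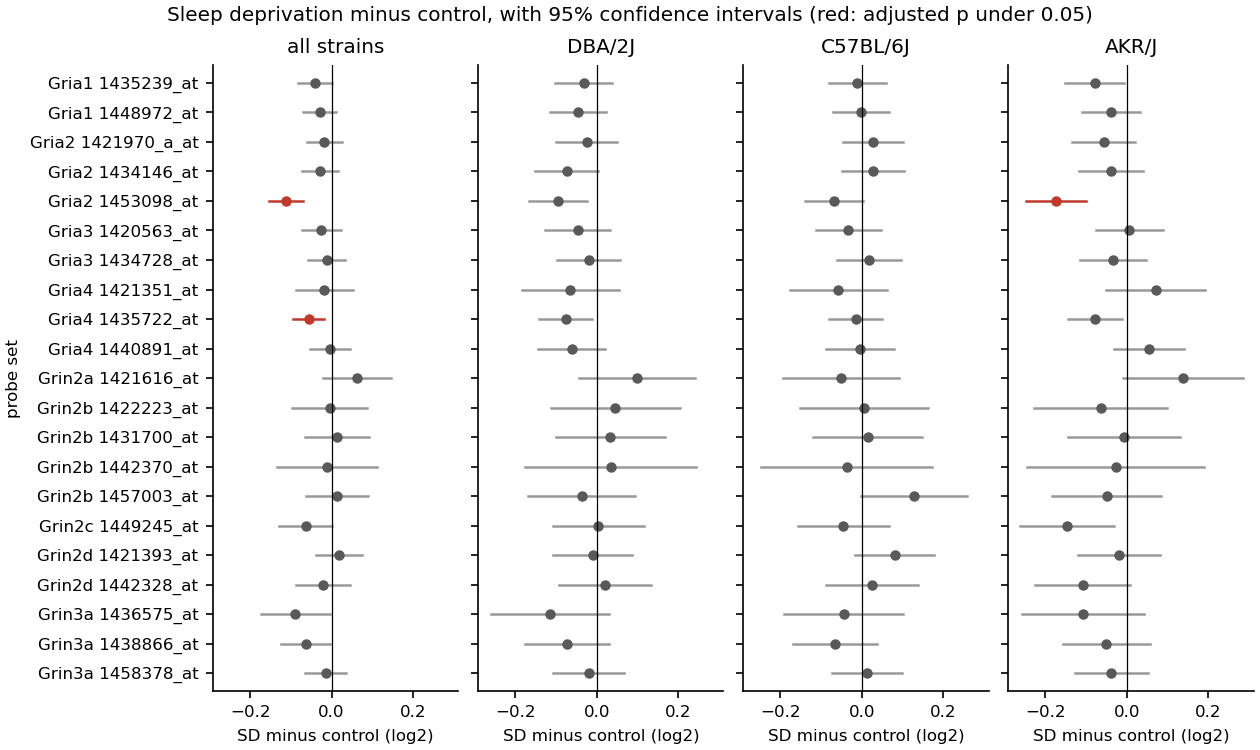
Difference between sleep-deprived and control mice (log2, horizontal axis) for each of the 21 probe sets, over all strains and within each strain; points are estimates, bars 95% confidence intervals, and red marks an adjusted p under 0.05. Gria2 1453098_at is red over all strains and in AKR/J, Gria4 1435722_at over all strains, and the other intervals lie between -0.17 and 0.15 in the first panel.

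The strains differed far more than the conditions did, on some probe sets of a gene and not on others. Of the 21 members, 11 were called in at least 1 of the 3 strain pairs in sleep-deprived mice, against 37.4% of all probe sets, and 8 in controls, against 36.1%. By pair, 7 were called for C57BL/6J minus AKR/J in sleep-deprived mice, 2 for DBA/2J minus AKR/J and 9 for DBA/2J minus C57BL/6J, with 24.8%, 15.6% and 25.5% of all probe sets called. In controls the counts were 5, 3 and 7, with 22.9%, 17.3% and 23.2% of all probe sets called. Differences between strains in the level of the transcript and in the sequence under the probes cannot be told apart on these arrays.

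Gria1 showed the widest separation. On 1448972_at the lowest, median and highest levels over both conditions were 10.13, 10.31 and 10.41 in DBA/2J, 9.10, 9.43 and 9.69 in C57BL/6J and 9.79, 9.87 and 10.09 in AKR/J. No array of 1 strain overlapped with those of another, so the order was DBA/2J, then AKR/J, then C57BL/6J, with no neighbours sharing a range. By this measure 3 members separated C57BL/6J from AKR/J, 1 separated DBA/2J from AKR/J and 2 separated DBA/2J from C57BL/6J, against 2.87%, 2.67% and 3.05% of all probe sets. In sleep-deprived mice DBA/2J minus C57BL/6J was 0.85, DBA/2J minus AKR/J 0.42 and C57BL/6J minus AKR/J -0.43 log2 units. In controls DBA/2J exceeded C57BL/6J by 0.89 ± 0.03 log2 units (SE), or 85.5%, and AKR/J by 0.43 ± 0.03, or 34.5%, and C57BL/6J minus AKR/J was -0.46 ± 0.03, or -27.5% (SE; limma, adjusted p = 6.38e-30, 9.61e-16 and 3.74e-17).

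The brighter Gria1 probe set, 1435239_at, did not repeat this order. Its medians were 10.09 in DBA/2J, 10.20 in C57BL/6J and 10.19 in AKR/J, over ranges of 9.96 to 10.22, 10.08 to 10.48 and 10.02 to 10.43. In controls the difference was -0.12 ± 0.03 log2 units (SE) for DBA/2J minus C57BL/6J and -0.11 ± 0.03 (SE) for DBA/2J minus AKR/J (limma, adjusted p = 0.00547 and 0.0193), the opposite direction to 1448972_at. The second of these was not called in sleep-deprived mice, without the 6 low spike-in arrays, or without AKR/J control ZT0 replicate 3, ZT6 replicate 3 or ZT12 replicate 2 or DBA/2J control ZT0 replicate 3 (limma, adjusted p = 0.0605, 0.0627, 0.0537 and 0.0535).

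Grin2b was high in C57BL/6J on 2 of its 4 probe sets. On 1457003_at the lowest, median and highest levels were 7.38, 7.52 and 7.92 in DBA/2J, 7.92, 8.20 and 8.83 in C57BL/6J and 7.13, 7.52 and 7.89 in AKR/J; on 1422223_at they were 4.53, 4.84 and 5.21 in DBA/2J, 5.11, 5.65 and 6.22 in C57BL/6J and 4.53, 4.79 and 5.09 in AKR/J. C57BL/6J arrays lay above those of the other strains on both, with a short overlap with DBA/2J on 1422223_at. The DBA/2J and AKR/J levels shared most of their ranges. In sleep-deprived mice C57BL/6J minus AKR/J was 0.81 log2 units on 1457003_at and 0.88 on 1422223_at, and DBA/2J minus C57BL/6J was -0.80 on each. In controls C57BL/6J exceeded AKR/J by 0.63 ± 0.07 log2 units (SE) on 1457003_at and by 0.81 ± 0.08 (SE) on 1422223_at, and DBA/2J differed from C57BL/6J by -0.64 ± 0.07 and -0.84 ± 0.08 (SE; limma, adjusted p at most 6.53e-12).

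The other Grin2b probe sets, 1442370_at and 1431700_at, passed no test between strains. The mean levels of 1431700_at (4.55) and of 1422223_at (5.10) were below the median of 5.68 over all probe sets, so both were dim. A strain difference could be missed on 1431700_at. The medians of 1442370_at, the brightest, were 7.99 in DBA/2J, 7.86 in C57BL/6J and 7.98 in AKR/J. This probe set also had the widest spread between replicate pools of all members, a standard deviation within groups of 0.27 log2 units, which is above that of 99.7% of all probe sets. Its lowest array, sleep-deprived C57BL/6J at ZT12, replicate 3, had 6.55, against 7.79 and 7.64 in the other pools of its group.

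Gria2 1453098_at, the probe set that fell with sleep deprivation, was lowest in C57BL/6J, with medians of 9.99 in DBA/2J, 9.56 in C57BL/6J and 9.94 in AKR/J. In sleep-deprived mice DBA/2J minus C57BL/6J was 0.41 and C57BL/6J minus AKR/J -0.31 log2 units. In controls DBA/2J exceeded C57BL/6J by 0.44 ± 0.04 log2 units (SE), and C57BL/6J differed from AKR/J by -0.41 ± 0.04 (SE; limma, adjusted p = 1.16e-15 and 1.22e-14). DBA/2J and AKR/J did not differ beyond their spread in controls (0.03 ± 0.04, SE, limma, adjusted p = 0.725). On Gria2 1434146_at the direction was the opposite, with DBA/2J minus C57BL/6J at -0.22 ± 0.04 in sleep-deprived mice and -0.12 ± 0.04 in controls (SE; limma, adjusted p = 4.58e-06 and 0.0155).

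Smaller differences were found for Gria3 and Grin3a. Gria3 1420563_at had medians of 8.15 in DBA/2J, 8.05 in C57BL/6J and 8.03 in AKR/J, and in sleep-deprived mice DBA/2J minus AKR/J was 0.10 ± 0.04 and DBA/2J minus C57BL/6J 0.11 ± 0.04 log2 units (SE; limma, adjusted p = 0.11 and 0.0455). In controls the same differences were 0.15 ± 0.04 and 0.12 ± 0.04 (SE; limma, adjusted p = 0.00375 and 0.0232). Against C57BL/6J the call was lost without any of 14 single arrays in sleep-deprived mice and any of 5 in controls, and without the 6 low spike-in arrays in both. Grin3a 1458378_at had medians of 6.42 in DBA/2J, 6.39 in C57BL/6J and 6.50 in AKR/J, and C57BL/6J minus AKR/J was -0.13 ± 0.04 in sleep-deprived mice and -0.18 ± 0.04 in controls (SE; limma, adjusted p = 0.0209 and 0.000714). The call in sleep-deprived mice was lost without C57BL/6J at ZT18, replicate 2 (limma, adjusted p = 0.0611) and without the low spike-in arrays (0.0505). Gria4, Grin2a, Grin2c and Grin2d had no probe set called between strains in controls.

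The joint test of strain by sleep deprivation called no member (limma, lowest adjusted p = 0.725), so strain differences were not shown to depend on condition. Some differences were called in sleep-deprived mice alone, and whether these differed from controls was not tested pair by pair. They were Gria2 1434146_at (0.16 ± 0.04, SE) and Gria4 1435722_at (0.11 ± 0.04, SE) for C57BL/6J minus AKR/J, with limma adjusted p = 0.00102 and 0.0126. Gria2 1453098_at was the only such member for DBA/2J minus AKR/J (0.10 ± 0.04, SE, limma, adjusted p = 0.0429), a call lost without any of 14 arrays. For DBA/2J minus C57BL/6J they were Gria2 1421970_a_at (-0.11 ± 0.04, SE) and Grin2d 1421393_at (-0.13 ± 0.05, SE), with limma adjusted p = 0.0197 and 0.0487. The first of these was lost without sleep-deprived C57BL/6J at ZT0, replicate 3 (limma, adjusted p = 0.0646) and without the 6 low spike-in arrays, and the second without any of 42 arrays. The Gria4 call was also lost without the low spike-in arrays.

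The mean level of 10 markers of the cerebellum, where Gria1, Gria4 and Grin2c are all expressed, also differed between strains, running from 9.22 to 9.42 on DBA/2J arrays, from 9.46 to 9.65 on C57BL/6J arrays and from 9.55 to 9.72 on AKR/J arrays. In controls, 0 of the 10 were higher and 8 lower for DBA/2J minus AKR/J, 3 higher and 6 lower for C57BL/6J minus AKR/J, and 2 higher and 5 lower for DBA/2J minus C57BL/6J, with 17.3%, 22.9% and 23.2% of all probe sets called. Other lists differed too: 4 of 4 measured oligodendrocyte markers were lower for DBA/2J minus C57BL/6J, and 5 of 5 microglial markers were called for C57BL/6J minus AKR/J, 2 higher and 3 lower. In whole brain, fewer cells of a type and less RNA per cell cannot be told apart. The part of these lists in the strain differences was not tested. The 6 neuronal markers overlapped between strains, at 12.27 to 12.38 on DBA/2J arrays, 12.25 to 12.42 on C57BL/6J arrays and 12.30 to 12.47 on AKR/J arrays.

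**Figure D4:**
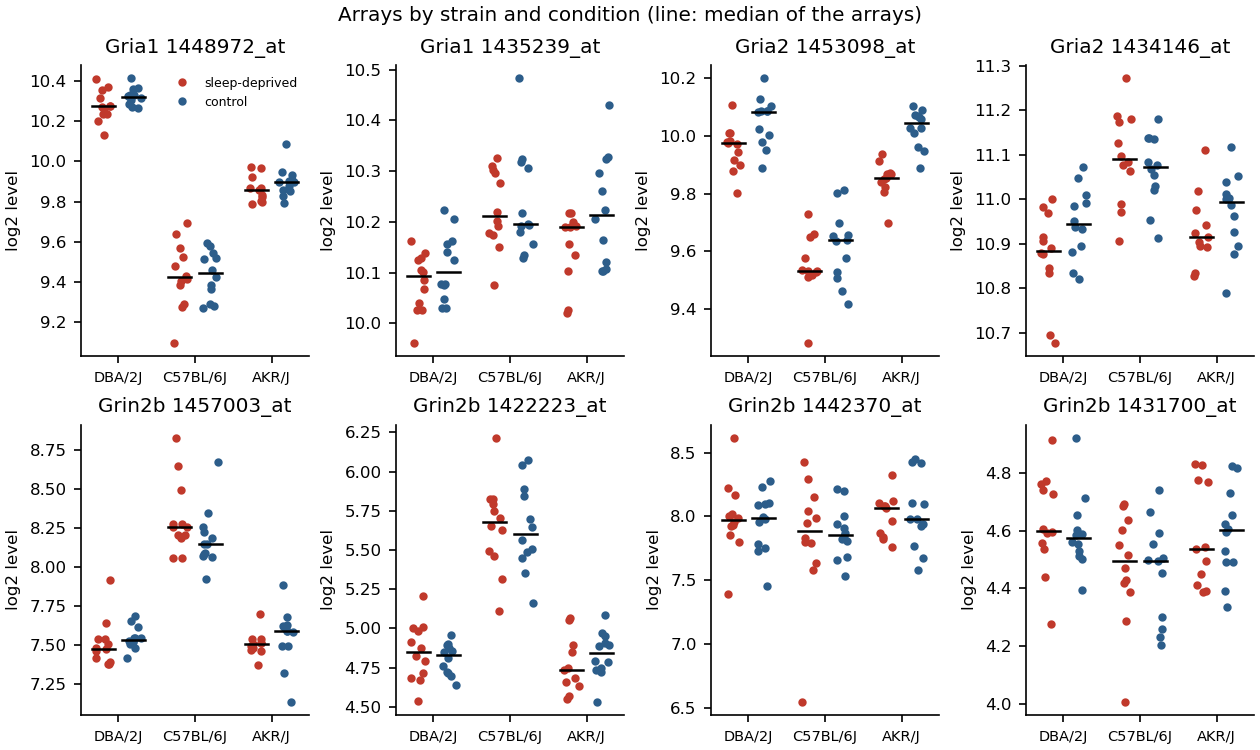
Log2 level (vertical axis, scaled for each panel) on every array by strain, for 2 probe sets each of Gria1 and Gria2 and the 4 of Grin2b; red points are sleep-deprived pools, blue points control pools, and lines are medians. Strains separate on Gria1 1448972_at and Grin2b 1457003_at, while Gria1 1435239_at and Grin2b 1442370_at overlap between strains.

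Time of day changed 1 member, Grin2c, in control mice and none in sleep-deprived mice. In sleep-deprived pools the lowest, median and highest levels of Grin2c were 7.76, 7.92 and 8.20 at ZT0, 7.80, 7.98 and 8.30 at ZT6, 7.61, 7.85 and 8.03 at ZT12 and 7.61, 7.73 and 8.13 at ZT18 (n = 9, 9, 9 and 8). In control pools they were 7.75, 7.98 and 8.28 at ZT0, 7.98, 8.01 and 8.30 at ZT6, 7.69, 7.90 and 8.11 at ZT12 and 7.69, 7.79 and 7.92 at ZT18 (n = 9 each). The sleep-deprived ranges overlapped at all 4 times. Among controls, the pools of ZT6 and ZT18, the times with the highest and lowest medians, did not overlap. How many of all probe sets separate in this way was not counted. The control median was highest at ZT6 and lowest at ZT18, with ZT0, at light onset, above ZT12, at dark onset.

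The time difference of Grin2c had a limma adjusted p of 0.293 in sleep-deprived mice, in which no member passed, 2 were at an unadjusted p under 0.05 and 1.42% of all probe sets were called. In controls it had an adjusted p of 0.0116 (limma), with 11.7% of all probe sets called. The mean over strains at ZT18 in controls was 0.21 log2 units below that at ZT0, and in every strain the control group mean at ZT18 was below that at each of the other times. The test of time by sleep deprivation did not pass for Grin2c (limma, adjusted p = 0.951), so its course was not shown to differ between the conditions.

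Grin2c moved with measures of RNA quality. The difference between the 3' and 5' actin control probe sets correlated with the deviation of Grin2c from its group mean at r = 0.73 over the 71 arrays (0.715 without the 6 low spike-in arrays), as a description of arrays that share groups and processing. The same difference for the Gapdh control probe sets correlated with Grin2c at r = 0.56, and more closely with Grin3a 1436575_at (0.77), Gria2 1421970_a_at (0.695) and Grin2b 1457003_at (0.65). The median actin difference in control pools was 0.78, 0.64, 0.67 and 0.70 log2 units at ZT0, ZT6, ZT12 and ZT18. The Grin2c medians in control pools at these times were 7.98, 8.01, 7.90 and 7.795. With the actin difference as a covariate, the time difference of Grin2c in controls had an adjusted p of 8.34e-05 and, without the low spike-in arrays, 0.0367 (limma). The mean of the cerebellar markers had control medians of 9.57, 9.60, 9.57 and 9.54 at the same times, and the striatal markers had 8.82, 8.80, 8.75 and 8.71. Deviations of Grin2c went with those of several of the 14 marker lists over the 71 arrays, at r = 0.74 for oligodendrocyte precursors, 0.69 for striatum, 0.65 for neurons, 0.63 for cerebellum and 0.57 for hippocampus and cortex. The correlation was negative for microglia (-0.57), hypothalamus (-0.39) and pituitary (-0.32). The part of these lists in the time difference was not tested.

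**Figure D5:**
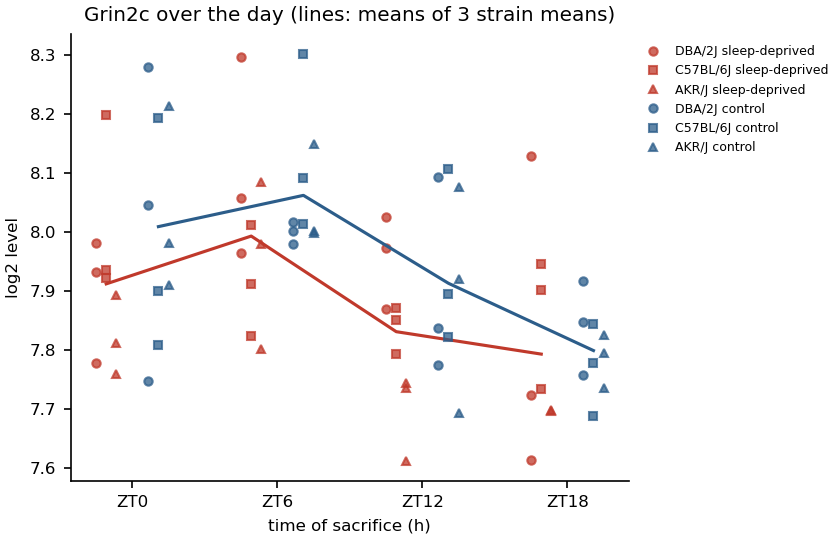
Log2 level of Grin2c (vertical axis) on each array by time of sacrifice; red marks are sleep-deprived pools, blue marks control pools, symbols give the strain, and lines join the means over the 3 strains. Control pools at ZT18 lie between 7.69 and 7.92 and those at ZT6 between 7.98 and 8.30.

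Deviations of arrays from their group means were shared between members. The closest pairs were Grin2c with Gria1 1435239_at (r = 0.80), Grin3a 1438866_at with Gria2 1421970_a_at (r = 0.76) and Gria2 1421970_a_at with Gria1 1435239_at (r = 0.725), each over 71 arrays. The actin difference correlated with Gria4 1421351_at at r = -0.54, and the median size was 0.35 over the 21 members and 0.19 over all probe sets. With the 4 probe sets of these pairs it correlated at r = 0.73 for Grin2c, 0.67 for Gria1 1435239_at, 0.43 for Grin3a 1438866_at and 0.37 for Gria2 1421970_a_at. On the 6 arrays with low spike-ins the 4 read higher than on the other arrays of their groups, by a median of 0.23, 0.15, 0.25 and 0.23. The largest medians there were 0.60 for Grin3a 1436575_at and 0.43 for Grin2b 1457003_at. The part of RNA quality and labelling in these shared deviations was not tested.

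Probe sets of 1 gene differed in how far they followed each other over the 24 group means. The correlation was 0.85 for Grin3a 1436575_at with 1438866_at and 0.91 for Grin2b 1422223_at with 1457003_at, but -0.64 for the 2 of Gria1 and -0.66 for Gria2 1434146_at with 1453098_at. Each of the last 3 pairs holds a probe set with a strain difference given above. Over deviations of arrays from their group means, which hold no strain difference, the sign was the other one for these 3 pairs. There r was -0.34 for the Grin2b pair, 0.295 for the Gria1 pair and 0.35 for the Gria2 pair, and 0.44 for the Grin3a pair. The correlation of group means within strains was not tested.

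Genes that work with these receptors were counted on the brightest probe set of each, in the same fit over all strains and times, in which 17.3% of all probe sets were called (8.31% higher and 9% lower). Of 7 measured kainate, delta and other NMDA receptor subunits, Grik5 alone passed, lower in sleep-deprived mice by 0.11 ± 0.03 log2 units (SE, limma, adjusted p = 0.00296). Of 18 auxiliary subunits and assembly factors, 1 was higher and 4 were lower. Abhd6, a lipase that limits delivery of AMPA receptors to the surface, rose by 0.12 ± 0.02, and Neto1, an auxiliary subunit of kainate receptors, fell by 0.08 ± 0.02 (SE; limma, adjusted p = 4.91e-07 and 0.00496). Cpt1c, which acts in AMPA receptor export, and Cacng7, of the family of transmembrane AMPA receptor regulators, fell by 0.05 ± 0.02 and 0.06 ± 0.02 (SE; limma, adjusted p = 0.017 and 0.0227).

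Of 16 measured scaffold and trafficking genes, 3 were higher and none was lower, a share near the 17.3% called over all probe sets. It was below the 32.9% called in a fit of only the probe sets above the median level. Grasp, a scaffold of metabotropic glutamate receptors, rose by 0.23 ± 0.02 log2 units, Dlg1, a scaffold that binds the Gria1 subunit, by 0.06 ± 0.01, and Lin7a by 0.06 ± 0.02 (SE; limma, adjusted p = 8.83e-11, 0.00127 and 0.0109). Of 11 genes of glutamate supply, clearance and D-serine, 2 were higher, again a share near that of all probe sets and below that of the probe sets above the median level. Glul, glutamine synthetase, rose by 0.08 ± 0.02 and Srr, which makes the co-agonist D-serine, by 0.09 ± 0.02 (SE, limma, adjusted p = 0.000111 and 0.000144). Of 11 measured kinases, phosphatases and editing enzymes, 1 was higher and 2 were lower. Ptpn5, a phosphatase that acts on Grin2b and Gria2 subunits, rose by 0.14 ± 0.02, while Ppp3ca, the catalytic subunit of calcineurin, fell by 0.05 ± 0.01 and Cdk5 by 0.08 ± 0.03 (SE; limma, adjusted p = 2.07e-07, 0.00584 and 0.0326). The medians of the 5 lists lay between -0.01 and 0.01.

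By the likeness of group means, the named gene nearest to the brightest probe set of each member was Stk39 for Gria1 (r = 0.88), Tnks2 for Gria2 (0.88) and Gria3 (0.80), Uhrf1bp1l for Gria4 (0.90), Zfp110 for Grin2a (0.765), Hdac2 for Grin2b (0.80), Zfp512 for Grin2c (0.84), Map2k2 for Grin2d (0.73) and Lpcat1 for Grin3a (0.81). These are Pearson correlations over 24 group means, the highest of 19616 to 19619 probe sets of other named genes with a level above the median, and the groups share strains, times and conditions.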

How the data were processed

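RNA of whole mouse brain was measured on 71 Affymetrix arrays of 1 colour, each with a pool from 3 mice. The deposited file holds log2 levels per probe set. Per the submitters' processing notes, RMA was the authors' method; its version is not given in the sources used. Values ran from 2.69 to 14.8, and array medians from 5.65 to 5.71. Control probe sets (64 of 45101) were left out of the tests. Between pools of a group the root mean square difference was at least 0.14 and at most 0.24, and no pair of arrays was merged. The number of arrays limits the precision.

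Gene names came from the platform annotation. A linear model with a mean for each of the 24 groups (47 residual degrees of freedom) was fitted to all 45037 probe sets with limma 3.58.1 in R 4.3.3, with lmFit, contrasts and eBayes. Strains and times were weighted equally. Shares of the sum of squares are sequential, with strain first, then time, then condition. Calls were at a Benjamini-Hochberg adjusted p under 0.05 over all probe sets. The scripts were tested on simulated data. Figures used matplotlib 3.10.9.

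All member probe sets could be named. Genes outside them were named on their brightest probe set, up to 4 for each list by smallest p, and for likeness the nearest in Pearson correlation of group means. The members, lists and tests were chosen with earlier results of these data known. Whether replicate numbers pair arrays was checked on deviations from group means: over 35 pairs of groups the correlation of same-numbered arrays ran from -0.28 to 0.60 with a median of 0.02, and 6 pairs were over 0.1, so the numbers were not used as pairs. Alternatives were other scalings, filters, variance settings, array weights, blocks and covariates, and leaving out arrays; the actin covariate was added after seeing the data.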

Additional observations from a re-analysis of the deposited data

How the results depend on the processing

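No called difference changed direction under any alternative run. The calls of Gria2 1453098_at and Gria4 1435722_at for sleep deprivation over all strains and times and of Grin2c for time of day in controls held under quantile normalization, centring, the filter above the median level, trended and robust variances, array weights, the replicate block, the actin covariate and both treatments of the low spike-in arrays. A replicate block gave 2 called members for sleep deprivation over all strains and times, as without it, and changed 2 of 79 results, the Gria3 call in C57BL/6J at ZT6 (adjusted p = 0.0503) and the Grin2d 1421393_at difference between DBA/2J and C57BL/6J in sleep-deprived mice (adjusted p = 0.0528, limma). Requiring a change of 0.1 log2 units left 1 member for sleep deprivation over all strains and times. The actin covariate, chosen after seeing the data, gave 4 there (adding Gria1 1435239_at and Grin2c), 1 in DBA/2J, 1 at ZT6 and 4 at ZT12. With the low spike-in arrays as a block as well, the counts were 6 over all strains and times, 1 in C57BL/6J, 3 in DBA/2J, 4 at ZT6, 4 at ZT12, 5 within strain and time, 3 for time of day in controls, 5 for DBA/2J minus AKR/J in controls and 11 for C57BL/6J minus AKR/J in sleep-deprived mice. That block alone gave 1 at ZT6 and 4 for DBA/2J minus AKR/J in sleep-deprived mice, which was also 4 without those arrays, with quantile normalization, with the filter and with array weights, and 1 after centring. Array weights gave 1 in C57BL/6J, 2 in DBA/2J and 1 for time of day in sleep-deprived mice. Quantile normalization gave 5 for DBA/2J minus AKR/J in controls and 1 at ZT0, as did the filter and the trended variances at ZT0, and the filter gave 2 for time of day in controls. Fitting only the groups compared gave 0 within strain and time. The causes of these moves were not tested.

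With 1 array left out, the count of members called was 1 to 2 for sleep deprivation over all strains and times, 1 to 1 in AKR/J, 0 to 1 in C57BL/6J, 0 to 0 in DBA/2J, 0 to 1 at ZT0, 0 to 1 at ZT6, 1 to 2 at ZT12, 0 to 0 at ZT18 and 1 to 4 within strain and time. For time of day it was 0 to 1 in sleep-deprived mice and 1 to 2 in controls. For C57BL/6J minus AKR/J, DBA/2J minus AKR/J and DBA/2J minus C57BL/6J it was 6 to 9, 1 to 4 and 7 to 9 in sleep-deprived mice and 5 to 6, 2 to 5 and 6 to 8 in controls. Small differences rest on pools of 3 mice, 2 or 3 to a group, and the deposited values carry no measure of signal over background for dim probe sets such as that of Grin2a.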
